A study of Mus musculus with 16 samples.

Results

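In hepatocytes of FVB mice on normal chow, messages carried by small polysomes were compared with messages carried by a single ribosome. The comparison rests on 4 of the 16 libraries of the series: 2 of light polysomes (2 to 4 ribosomes) and 2 of monosomes (1 ribosome). They were chosen by their labels alone. The hepatocytes were isolated with cycloheximide present, an inhibitor of elongation that holds ribosomes on their messages, the extract was spread over a sucrose gradient, and polyadenylated RNA of each fraction was sequenced with a stranded kit. The other groups used here are chow heavy polysomes (above 5 ribosomes) and the monosomes and light polysomes of mice fed DDC for 4 weeks, a porphyrinogenic diet that injures liver and bile ducts. All groups share the FVB strain, the cell isolation and cycloheximide. The sources used here give neither age nor sex. The chow fractions carry the names CH1_CH2 (replicate 1) and CH3_CH4 (replicate 2), so the libraries with one number came from one preparation, and the joined names do not say how many animals were pooled. The comparison has 2 preparations and describes these samples. Its p-values rest on the spread between replicate libraries, pooled over the 8 groups of the series.

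A translated message gathers more ribosomes as initiation outpaces the time a ribosome needs to cross the coding region, so a short coding region holds few ribosomes even when it is initiated often. Monosomes hold messages with a single ribosome, either at the start of translation, on a very short coding region or in a pause, and they can also hold RNA on particles of similar density. Messages for ribosomal proteins and elongation factors carry a 5′ terminal oligopyrimidine tract (TOP), a run of C and T residues at the cap through which growth and nutrient signals switch them between untranslated particles and polysomes. Values are FPKM, fragments per kilobase of transcript scaled to library size, summed over the transcripts of a gene. FPKM describe the make-up of each fraction and not the amount of RNA in it, so a gene that is lower on light polysomes held a smaller part of that fraction than of the monosome fraction.

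Of 48158 genes, 9328 reached 1 FPKM in at least 2 of the 4 libraries, 6 of these were set aside because a group listed an abundant gene at 0, and 9322 were tested, 8720 of them protein-coding. On light polysomes 1019 genes were higher than on monosomes (10.9% of those tested) and 659 were lower (7.07%), together 18% (limma on log2(FPKM + 1), adjusted p under 0.05). Of these, 747 were at least 2-fold higher and 436 at least 2-fold lower. In all 1678 called genes, both light polysome libraries lay on the same side of both monosome libraries. This was common in genes at large: of the 9322 tested, 3458 were separate and higher and 2398 separate and lower. The difference correlated between the preparations with r = 0.675 and rho = 0.701 across genes, which are not independent replicates. With the preparation as a block, 1594 genes were higher and 924 lower. List counts below with the block or another scaling are to be read beside the counts of all genes in the same setting. Leaving out 1 library leaves an arm with a single library, which is then taken to vary like the other groups: 830 genes were higher and 582 lower without monosome replicate 1, 332 and 224 without monosome replicate 2, 198 and 156 without light polysome replicate 1, and 376 and 254 without light polysome replicate 2. Preparation 2 alone gave 217 and 146 calls and preparation 1 alone 39 and 44. Calls of most lists below fell too. Without monosome replicate 1, however, the tRNA synthetases went from 5 to 6 higher, the macrophage markers from 2 to 3 and genes with a coding region of 2400 bases or more from 37 to 52, and the iron-responsive list gained 1 higher and the endothelial markers 1 lower gene. No called gene named here changed its sign. The split of the calls depends on scaling: of the called genes 60.7% were higher as deposited, 51% (723 higher, 696 lower) after equal totals and 45.6% (755 higher, 900 lower) after quantile normalization. Equal totals moved the median of all genes, 0.13, by -0.11.

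The 4 libraries are not equal in depth. The values of long genes with a single transcript fall on steps of 1 fragment, which puts 1 FPKM at 32.3 and 20.1 fragments per kilobase in the monosome libraries of preparations 1 and 2, and at 34.6 and 30.3 in the light polysome libraries. Monosome replicate 2 was thus the shallowest. Summed FPKM were 764465 and 812204 on monosomes and 879953 and 838956 on light polysomes. The replicate spread on the log2 scale was 0.541 in monosomes and 0.422 in light polysomes. A few transcripts of very abundant genes are listed at 0, which can be a failed estimate. Ttr, Apoa2 and Apoc1 are listed at 0 in both light polysome libraries while at 6438 to 45839 FPKM on monosomes, and Alb is listed at 0 throughout. Their level is not analysed here.

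**Figure D1:**
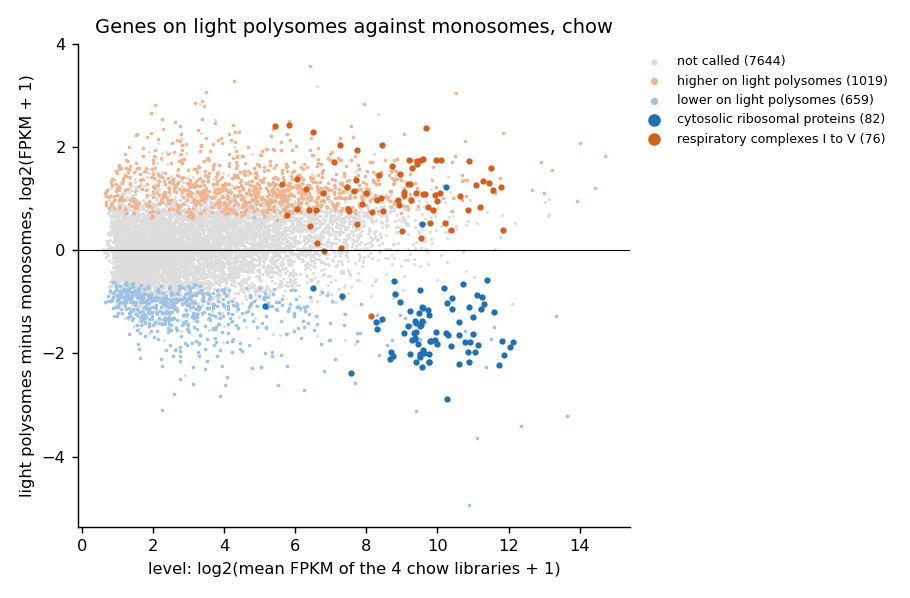
Each point is a gene, with its mean level in the 4 chow libraries, log2(mean FPKM + 1), on the horizontal axis and its difference between light polysomes and monosomes on the vertical axis. Pale orange marks the 1019 genes higher and pale blue the 659 genes lower on light polysomes, and the 82 cytosolic ribosomal protein genes (blue) lie almost all below 0 while the 76 genes of respiratory complexes I to V (orange) lie almost all above it.

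Messages that encode the ribosome itself were lower on light polysomes. Of 82 cytosolic ribosomal protein genes tested, 71 were lower and 1 was higher, with a median difference of -1.59 on the log2 scale against 0.13 for all genes. In the small subunit 30 of 33 were lower (median -1.75) and in the large subunit 41 of 49 (median -1.47). Equal totals gave 79 lower and quantile normalization 77, and without light polysome replicate 1 there were 46. The list moved alike in each preparation, with medians of -1.62 and -1.56. Ribosomal protein genes have many processed pseudogenes, and reads that fit both can be split between them; of 197 processed pseudogenes tested 54 were lower (27.4%, against 7.07% of all genes) and 29 higher (14.7%, against 10.9%).

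Rpsa, a small subunit protein (GRCm38 chr9:120127689-120132369), showed the largest difference of the list. It stood at 2034 and 2338 FPKM on monosomes and 271 and 317 FPKM on light polysomes. Both light polysome values lay far below both monosome values, and the difference was -2.89 ± 0.30 (SE, adjusted p = 0.000392), or 7.42-fold lower. Rplp0, the stalk base of the large subunit (chr5:115559467-115563727), stood at 1234 and 1298 FPKM on monosomes and 245 and 280.5 FPKM on light polysomes, a difference of -2.27 ± 0.23 (SE, adjusted p = 0.000392). Rpl28 (chr7:4792874-4795066) was at 2455 and 2662 FPKM on monosomes and 492 and 619 FPKM on light polysomes, a difference of -2.21 ± 0.25 (SE, adjusted p = 0.000401). Rpl5, which binds the 5S RNA, was at 313 and 317 against 52.5 and 68.6 FPKM with a difference of -2.37 ± 0.32 (SE, adjusted p = 0.000975). The small subunit genes Rps3a1 (-2.17 ± 0.25 (SE, adjusted p = 0.00048)) and Rps2 (-2.01 ± 0.24 (SE, adjusted p = 0.000524)) and the large subunit genes Rpl17 (-2.17 ± 0.24 (SE, adjusted p = 0.000401)) and Rpl14 (-2.00 ± 0.26 (SE, adjusted p = 0.000885)) were lower by similar amounts. Fau, which encodes a ubiquitin-like protein fused to ribosomal protein S30, was at 3219 and 3530 FPKM on monosomes and 844 and 886 FPKM on light polysomes. All of these replicates were separate between the fractions.

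The exceptions were few. Rps27l, a paralog of Rps27, was the one member that was higher, at 729.9 and 730.5 FPKM on monosomes and 1665 and 1739 FPKM on light polysomes, a difference of 1.22 ± 0.34 (SE, adjusted p = 0.0288); in each case where 1 of the 4 libraries was left out it was no longer called. Rpl36al was at 558 and 706 against 848 and 933 FPKM and was not called (0.50 ± 0.27, SE; adjusted p = 0.214). Rps29 had 3243 and 3238 FPKM on monosomes and 1974 and 2387 FPKM on light polysomes, with all values in order but an adjusted p of 0.227 for a difference of -0.58. The other 8 uncalled members, Rps21, Rpl11, Rpl18, Rpl27, Rpl29, Rpl36, Rpl38 and Rpl39, had differences of -0.60 to -1.19. These exceptions were chosen after their values were seen.

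Other messages of the TOP class were lower as well. Of 22 tested, 14 were lower (15 at an unadjusted p under 0.05, and 8 without light polysome replicate 1), with a median of -1.24. Tpt1, a small abundant growth-related protein, stood at 4563 and 4201 FPKM on monosomes and 883 and 946 FPKM on light polysomes, a difference of -2.26 ± 0.27 (SE, adjusted p = 0.000524). Pabpc1, the poly(A)-binding protein of the cytoplasm, was at 70.0 and 84.0 against 13.1 and 10.6 FPKM, a difference of -2.61 ± 0.37 (SE, adjusted p = 0.0012). The elongation factors Eef1a1, which delivers aminoacyl-tRNA, and Eef2, which drives translocation, differed by -1.71 ± 0.35 (SE, adjusted p = 0.00821) and -1.72 ± 0.30 (SE, adjusted p = 0.00316). Eef1a1 was at 4644 and 4235 FPKM on monosomes and 1362 and 1347 FPKM on light polysomes. Eif4b, a helper of the initiation helicase, differed by -2.05 ± 0.23 (SE, adjusted p = 0.000401), and Rack1, a scaffold on the small subunit, by -2.06 ± 0.27 (SE, adjusted p = 0.000949).

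The sequence at the start of these genes is shown because the TOP tract defines the class. Each line gives 20 bases before and 20 bases from the RefSeq start (GRCm38.p6), 5′ to 3′ on the transcribed strand, with runs of 8 or more C or T residues in capitals. The first 4 were lower on light polysomes and the last 3 were higher.
Rpl28, chr7:4792945-4792984, plus strand: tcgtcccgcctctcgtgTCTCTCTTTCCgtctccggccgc
Fau, chr19:6057927-6057966, plus strand: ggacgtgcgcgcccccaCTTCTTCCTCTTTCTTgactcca
Rpl14, chr9:120571497-120571536, plus strand: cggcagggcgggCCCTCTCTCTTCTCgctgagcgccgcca
Rack1, chr11:48800340-48800379, plus strand: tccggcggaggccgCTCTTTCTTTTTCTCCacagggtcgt
Ndufa1, chrX:37191219-37191258, minus strand: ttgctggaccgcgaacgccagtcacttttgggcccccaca
Cycs, chr6:50566550-50566589, minus strand: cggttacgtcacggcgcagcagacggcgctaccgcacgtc
Ndufc2, chr7:97399983-97400022, plus strand: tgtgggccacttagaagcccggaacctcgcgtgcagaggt
In the 4 lower genes the start falls within or beside a pyrimidine run of 11 to 16 bases, and in the 3 higher genes the longest run in the window is 2 to 5 bases. They were printed as the members of the ribosomal and TOP lists with the lowest p that hold such a run and the members of complexes I to V with the lowest p that do not, so they show the contrast and do not measure it. Over all genes with a RefSeq start, 18.4% hold such a run in this window (4965 of 27025). Among the ribosomal protein genes of the list 50.8% hold one (31 of 61), among the other TOP messages 43.8% (7 of 16), in complex I 6.25% (2 of 32), in complexes II to V 22.6% (7 of 31), in the proteasome 17.9% (5 of 28) and in the mitochondrial ribosome 18.8% (13 of 69). Of all called genes, 24.3% of the lower ones (112 of 461) and 16.4% of the higher ones (130 of 791) hold it, against 19.1% of the tested genes. Without the ribosomal and TOP lists the share in the lower genes was 20.6% (82 of 399). The search counted one strand, and a match in the window does not show that a message begins in it. The window was chosen after results were known.

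**Figure D2:**
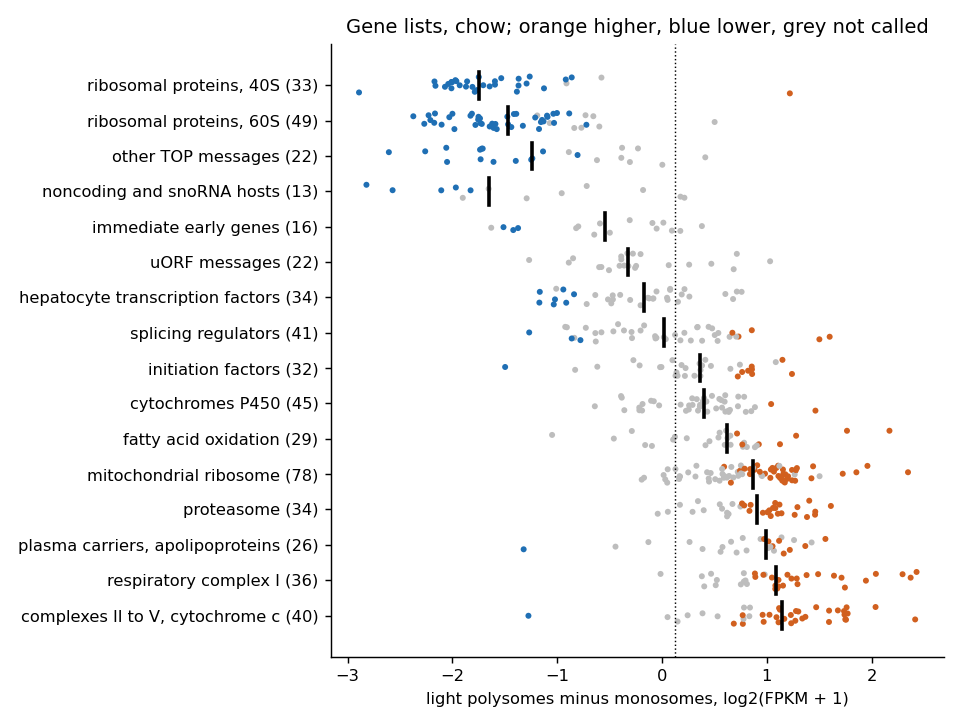
Points are the tested members of 16 gene lists, placed by their difference between light polysomes and monosomes in chow, log2(FPKM + 1); orange members were called higher, blue lower and grey not called. Black bars are list medians, numbers in brackets are members tested, and the dotted line is the median of all genes, 0.13. Medians of the ribosomal protein lists lie to its left, at -1.75 and -1.47. Those of the respiratory chain lists lie to its right, at 1.09 and 1.15.

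Nuclear-encoded messages of the mitochondrial respiratory chain moved the other way. In complex I, the NADH dehydrogenase that feeds electrons into the chain, 24 of 36 tested genes were higher and 0 were lower by limma (28 and 0 at an unadjusted p under 0.05), with a median of 1.09. In complexes II to V with cytochrome c, which carry electrons to oxygen and make ATP, 30 of 40 were higher and 1 was lower, with a median of 1.15. Equal totals gave 25 and 27 higher, and quantile normalization 19 and 24. These shares stand beside 10.9% for all genes. In both lists together 54 of 76 genes were higher, 23 without light polysome replicate 1, and 30 without monosome replicate 2 or light polysome replicate 2.

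Ndufa1, a small membrane subunit of complex I (chrX:37187588-37191163), was at 255 and 272 FPKM on monosomes and 1297 and 1440 FPKM on light polysomes. The light polysome values were separate from and above the monosome values, and the difference was 2.37 ± 0.23 (SE, adjusted p = 0.000358), or 5.18-fold. Ndufs5 was at 21.0 and 13.1 against 108 and 81.8 FPKM, a difference of 2.43 ± 0.30 (SE, adjusted p = 0.000636), and Ndufc2 was at 33.1 and 25.7 against 165 and 131 FPKM, a difference of 2.30 ± 0.24 (SE, adjusted p = 0.000392). Ndufb6 differed by 1.95 ± 0.24 (SE, adjusted p = 0.000571). Cycs, cytochrome c itself, the mobile carrier between complexes III and IV, was at 13.9 and 11.2 FPKM on monosomes and 60.1 and 83.7 FPKM on light polysomes, a difference of 2.42 ± 0.24 (SE, adjusted p = 0.000364). Cox7b, a subunit of complex IV, differed by 2.04 ± 0.27 (SE, adjusted p = 0.000925), and Atp5g3, a subunit of the proton ring of ATP synthase, by 1.74 ± 0.23 (SE, adjusted p = 0.00088). Cox7a2l, which takes part in joining complexes into supercomplexes, was the one lower member, at 389 and 395 against 154 and 169 FPKM, a difference of -1.27 ± 0.28 (SE, adjusted p = 0.0101).

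Messages of other small subunits of large assemblies were higher too. For the mitochondrial ribosome, which makes the proteins encoded by mitochondrial DNA, 40 of 78 tested genes were higher and 0 lower by limma (55 and 0 at an unadjusted p under 0.05), with a median of 0.87, although 35 were higher with equal totals and 22 with quantile normalization. Without light polysome replicate 1, 5 were called. Mrps28 stood at 11.6 and 13.4 FPKM on monosomes and 73.8 and 61.7 FPKM on light polysomes, a difference of 2.35 ± 0.22 (SE, adjusted p = 0.000358), Mrps33 differed by 1.85 ± 0.23 (SE, adjusted p = 0.000608) and Mrpl39 by 1.72 ± 0.25 (SE, adjusted p = 0.00135). The cytosolic and the mitochondrial ribosomal protein messages thus lay on opposite sides of the median of all genes. In the proteasome, the protease of ubiquitin-tagged proteins, 21 of 34 were higher and 0 lower by limma (24 and 0 at an unadjusted p under 0.05), with a median of 0.90, and 14 were higher with equal totals and 10 with quantile normalization. Without light polysome replicate 1, 3 were called. Its core subunits Psma7, Psmb5 and Psmb7 differed by 1.40 ± 0.19 (SE, adjusted p = 0.000949), 1.61 ± 0.22 (SE, adjusted p = 0.000975) and 1.46 ± 0.23 (SE, adjusted p = 0.00228). Psmb5 was at 18.5 and 14.3 FPKM on monosomes and 49.0 and 54.8 FPKM on light polysomes.

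The other large rises were single messages of small proteins. Smim4, a small integral membrane protein of mitochondria, had the largest difference, at 36.5 and 3.02 FPKM on monosomes and 120.2 and 176 FPKM on light polysomes. Its monosome replicates lie far apart, and its difference of 3.58 ± 0.90 (SE, adjusted p = 0.0184) has a wide error. Ube2a, a ubiquitin-conjugating enzyme, was at 16.3 and 15.5 FPKM on monosomes and 100.4 and 89.2 FPKM on light polysomes, a difference of 2.50 ± 0.28 (SE, adjusted p = 0.000418). Sumo2, a small protein modifier, was at 7.68 and 4.88 FPKM on monosomes and 32.0 and 36.5 FPKM on light polysomes, a difference of 2.30 ± 0.42 (SE, adjusted p = 0.00436). Dbi, the acyl-CoA-binding protein, was among the most abundant of them at 1282 and 1233 FPKM on monosomes and 6637 and 5600 FPKM on light polysomes, a difference of 2.28 ± 0.34 (SE, adjusted p = 0.00159).

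**Figure D3:**
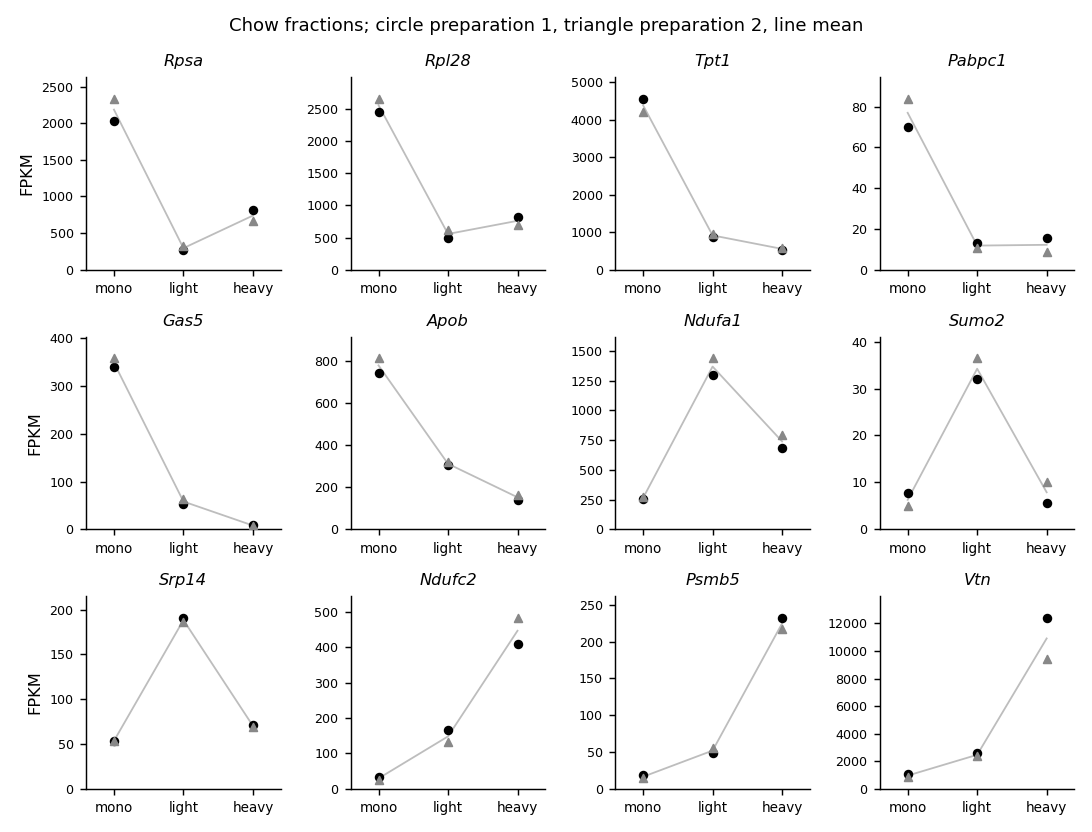
FPKM of 12 genes in the chow monosome, light polysome and heavy polysome libraries, with circles for preparation 1, triangles for preparation 2 and a line through the means; each panel has its own axis from 0. The top row and Gas5 and Apob are lower on light polysomes than on monosomes, Ndufa1, Sumo2 and Srp14 are highest on light polysomes, and Ndufc2, Psmb5 and Vtn are highest on heavy polysomes.

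The genes that were higher on light polysomes differed in where they stood on heavy polysomes. Ndufa1 was at 682 and 796 FPKM there, below its light polysome values, and Sumo2 was at 5.70 and 10.1. Srp14, a protein of the signal recognition particle that guides ribosomes to the endoplasmic reticulum, was at 53.4 and 53.5 FPKM on monosomes and 191 and 186 FPKM on light polysomes and at 71.4 and 69.0 on heavy polysomes. Among the monosome, light and heavy fractions, these messages had their highest FPKM on light polysomes. Ndufc2, at 409 and 483 FPKM on heavy polysomes, Psmb5 at 232 and 217 and Atp5g3 at 3278 and 3683 were instead highest there. Of the lower genes, Rpsa stood at 817 and 662 FPKM and Fau at 2614 and 2594 FPKM on heavy polysomes, in each case between the values of the other fractions. Tpt1 was at 520.4 and 587 and Rpl41 at 729.5 and 678, below both. Heavy polysomes were not tested here, and their values share the preparations. Summed FPKM of the chow heavy polysome libraries were 1379630 and 1359984, above the 879953 and 838956 of light polysomes. The FPKM given here were not scaled to equal totals.

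Across protein-coding genes the difference fell with the length of the coding region. Of 210 genes with a coding region under 300 bases, 39% were higher and 6.19% lower, with a median of 0.80. The share of higher genes was 26.6% from 300 to under 600 bases, 12.1% to under 1200, 6.17% to under 2400 and 2.72% of 1358 genes at 2400 bases or more, where 8.76% were lower and the median was -0.10. Of the 119 lower genes in that longest class 33 reached 1 FPKM on monosomes alone, and 5 of the called genes under 300 bases reached it on light polysomes alone. Spearman's rho between coding length and the difference was -0.29 over 8710 genes, -0.31 in preparation 1 and -0.23 in preparation 2, as a description across genes that share their libraries. Ribosomal protein genes, most of them short, did not share this position. Of the 9 under 300 bases 5 were lower and 0 higher (median -0.92), and of the 50 with 300 to under 600 bases 43 were lower and 1 higher (median -1.45). All 21 with 600 to under 1200 bases were lower (median -1.86). Within the 82 of them rho was -0.45, and without the ribosomal and TOP lists it was -0.32 over 8606 genes.

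Both directions occur among the shortest messages, as a pair of coding regions shows. They are taken from GENCODE M21 transcripts on GRCm38, from the start to the stop codon, which are in capitals.
Rpl41: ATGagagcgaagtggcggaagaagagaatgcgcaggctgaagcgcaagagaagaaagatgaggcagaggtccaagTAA
Ndufa1: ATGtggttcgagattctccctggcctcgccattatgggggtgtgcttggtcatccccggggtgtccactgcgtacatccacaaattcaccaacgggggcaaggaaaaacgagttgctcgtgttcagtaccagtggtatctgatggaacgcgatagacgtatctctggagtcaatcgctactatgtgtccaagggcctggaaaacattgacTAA
Rpl41 encodes 25 amino acids on chr10:128548387-128548960 (minus strand) and Ndufa1 70 amino acids on chrX:37187721-37191090 (minus strand). Rpl41 was at 6382 and 7530 FPKM on monosomes and 1837 and 2216 FPKM on light polysomes, a difference of -1.78 ± 0.39 (SE, adjusted p = 0.0103), while Ndufa1 was 5.18-fold higher.

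**Figure D4:**
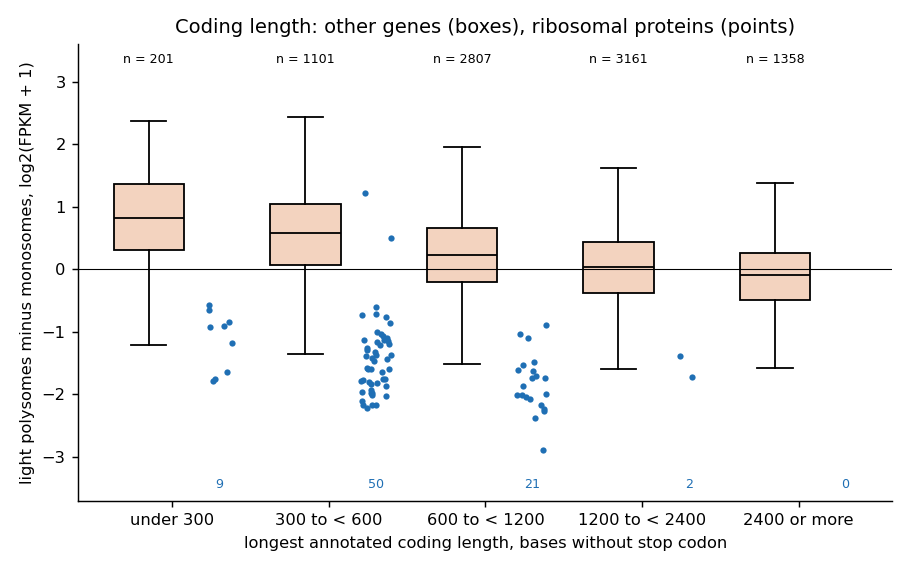
Boxes show the difference between light polysomes and monosomes for protein-coding genes other than ribosomal proteins, in 5 classes of coding length (line, median; box, quartiles; whiskers, the last value within 1.5 box lengths; outliers not drawn). Blue points are the ribosomal protein genes of the class, with their number below; the box medians fall from 0.82 under 300 bases to -0.10 at 2400 or more, and nearly all ribosomal protein genes lie under the boxes.

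Apob stands at the far end of coding length. Its coding region of 13515 bases encodes the protein of very low density lipoprotein. It stood at 744 and 813 FPKM on monosomes and 305 and 317 FPKM on light polysomes and at 139 and 164 on heavy polysomes, and it was lower on light polysomes by a difference of -1.32 ± 0.26 (SE, adjusted p = 0.00614). R3hdm2, with 3132 coding bases, encodes a protein with an R3H domain, a fold that binds nucleic acid. It was at 57.0 and 49.7 against 10.1 and 10.5 FPKM, a difference of -2.26 ± 0.24 (SE, adjusted p = 0.000392). Abcc2, the canalicular pump for bilirubin and bile salt conjugates, was lower, with a difference of -1.49 ± 0.30 (SE, adjusted p = 0.00687), and Sel1l, the adaptor of the endoplasmic reticulum degradation complex, was lower with a difference of -1.45 ± 0.23 (SE, adjusted p = 0.00201).

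RNA from the mitochondrial genome was higher on monosomes. Mitochondrial messages are translated inside the organelle, by ribosomes that sediment differently from cytosolic ones. mt-Nd1 stood at 23084 and 22819 FPKM on monosomes and 2135 and 2878 FPKM on light polysomes, a difference of -3.21 ± 0.34 (SE, adjusted p = 0.000571), and mt-Nd2 at 8996 and 10100 FPKM on monosomes and 790.2 and 1027 FPKM on light polysomes, a difference of -3.40 ± 0.40 (SE, adjusted p = 0.000492). mt-Nd5 differed by -3.11 ± 0.46 (SE, adjusted p = 0.00186), and mt-Nd6, on the opposite strand, by -2.70 ± 0.81 (SE, adjusted p = 0.0404). The mitochondrial ribosomal RNAs mt-Rnr2 and mt-Rnr1 were lower, with differences of -4.94 ± 0.52 (SE, adjusted p = 0.000392) and -3.65 ± 0.49 (SE, adjusted p = 0.000949), and mt-Rnr2 was the most negative gene of the table. In the list 4 of 6 tested messages were lower and 1 was higher. The higher one, mt-Co2, is listed at 0 and 0 against 1.12 and 1.20 FPKM and adds nothing, since mt-Co1, mt-Cytb and mt-Nd4 are listed at 0 in both monosome libraries and at 1559 to 6672 FPKM on light polysomes, as failed estimates can be.

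Some RNAs without a translated product, hosts of small nucleolar RNAs among them, were lower. Of 13 tested from a chosen list, 5 were lower (7 at an unadjusted p under 0.05, and 3 without any 1 of the 4 libraries), with a median of -1.65. Noncoding genes at large showed no such median: of 98 lincRNA genes 9 were higher and 12 lower (median 0.0066), of 133 antisense genes 7 and 6 (median 0.0311), and of 78 processed transcripts 3 and 11 (median -0.14). Gas5, a snoRNA host with a TOP start, was at 339 and 359 FPKM on monosomes and 53.2 and 63.0 FPKM on light polysomes and at 9.41 and 6.17 on heavy polysomes. Its difference was -2.57 ± 0.28 (SE, adjusted p = 0.000401). Snhg8, another snoRNA host, was at 244 and 205 against 53.7 and 48.8 FPKM, a difference of -2.11 ± 0.35 (SE, adjusted p = 0.00272). Neat1, the scaffold of nuclear paraspeckles, was at 30.4 and 19.3 against 2.85 and 2.32 FPKM, a difference of -2.82 ± 0.45 (SE, adjusted p = 0.00227). Malat1, a nuclear RNA, reached 3.31 FPKM in monosome replicate 1 and under 1 FPKM in the other 3 libraries, and was not tested.

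Other components of translation had more higher than lower members. Of 32 initiation factor genes, 8 were higher and 1 lower (25% and 3.12%, against 10.9% and 7.07% of all genes), with a median of 0.36. Of the 8, 1 reached 1 FPKM on light polysomes alone and so had to be higher. Equal totals gave 2 higher and 2 lower, quantile normalization 5 and 3, and without light polysome replicate 1 there was 1 higher. Eif3b, a subunit of the eIF3 scaffold, was at 55.8 and 57.5 FPKM on monosomes and 129 and 142 FPKM on light polysomes, a difference of 1.24 ± 0.22 (SE, adjusted p = 0.00374). Eif2b3, of the exchange factor that recharges eIF2, differed by 1.15 ± 0.28 (SE, adjusted p = 0.0157), and Eif4ebp2, a repressor of cap binding, was the lower one, with a difference of -1.50 ± 0.36 (SE, adjusted p = 0.0166). Of 20 aminoacyl-tRNA synthetases 5 were higher (25%, against 10.9% of all genes). Hars (1.25 ± 0.19 (SE, adjusted p = 0.00186)), Gars (0.97 ± 0.21 (SE, adjusted p = 0.0114)) and Dars (1.35 ± 0.31 (SE, adjusted p = 0.0137)) were among them. Without monosome replicate 2 or light polysome replicate 1, 1 synthetase was called.

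Messages with known control by upstream reading frames were not called. In 22 such genes 0 passed in either direction by limma, with 2 higher and 1 lower at an unadjusted p under 0.05, and their median was -0.33. With the preparation as a block 1 was called higher. The stress factor Atf4 was at 124 and 115 FPKM on monosomes and 91.4 and 90.0 FPKM on light polysomes, a difference of -0.39 ± 0.26 (SE; adjusted p = 0.331). Ppp1r15b, which directs a phosphatase to eIF2, differed by -0.51 ± 0.24 (adjusted p = 0.163). Mkks, with the lowest p of the list, was at 23.4 and 19.5 against 41.7 and 47.9 FPKM (adjusted p = 0.0593, and 0.0395 with the preparation as a block), followed by Sat1 (0.68 ± 0.27; adjusted p = 0.096) and Slc35a4 (-0.60 ± 0.25; adjusted p = 0.122). Odc1, the first enzyme of polyamine synthesis, differed by -0.28 ± 0.27 (adjusted p = 0.511), and Oaz1, its antizyme, by 0.47 ± 0.26 (adjusted p = 0.227).

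Among messages with iron-responsive elements, 2 of 8 were lower (25%, against 7.07% of all genes), and 4 lower and 1 higher with the block. Ftl1, the ferritin light chain, was at 12094 and 17526 FPKM on monosomes and 6485 and 5571 FPKM on light polysomes, a difference of -1.28 ± 0.35 (SE, adjusted p = 0.0285). Fth1, the heavy chain, was at 4977 and 6889 FPKM on monosomes and 3162 and 2533 FPKM on light polysomes, a difference of -1.05 ± 0.36 with an adjusted p of 0.0639, and 0.0483 with the preparation as a block. All 4 light polysome values of the pair lay below their monosome values. Epas1, a hypoxia factor, was lower, with a difference of -1.37 ± 0.34 (SE, adjusted p = 0.0172). Tfrc, the transferrin receptor, was at 1.92 and 3.11 against 0.632 and 0.857 FPKM (adjusted p = 0.0735, and 0.0301 with the block); it reached 1 FPKM on monosomes alone and so had to be lower, and it is given for its level only. Of 17 selenoprotein genes 3 were higher and 1 lower (17.6% and 5.88%, against 10.9% and 7.07% of all genes). The block gave 6 and 1, beside 1594 and 924 of all 9322 genes. Gpx1, the abundant glutathione peroxidase, was at 10026 and 11282 FPKM on monosomes and 20988 and 20370 FPKM on light polysomes, a difference of 0.96 ± 0.25 (SE, adjusted p = 0.0219). Selenos differed by 1.61 ± 0.19 (SE, adjusted p = 0.000492), Msrb1 by 1.02 ± 0.25 (SE, adjusted p = 0.0181) and Selenow by -1.38 ± 0.33 (SE, adjusted p = 0.0147), while Selenop, the plasma carrier of selenium, differed by 0.27 ± 0.20 (adjusted p = 0.391).

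Some messages for proteins the liver secretes were higher on light polysomes, with few calls in each list. Each main count stands beside 10.9% higher and 7.07% lower over all genes. With the block 1594 and 924 of all 9322 genes were called, and with quantile normalization 755 and 900. Of 26 plasma carriers and apolipoproteins tested 8 were higher and 1, Apob, was lower, with a median of 0.99; the block gave 13 higher. Leaving out any 1 of the 4 libraries left at most 1 higher call. Vtn, vitronectin, was at 1046 and 871 FPKM on monosomes and 2564 and 2369 FPKM on light polysomes, a difference of 1.37 ± 0.30 (SE, adjusted p = 0.0108), and stood at 12414 and 9398 FPKM on heavy polysomes, a difference that was not tested. Gc, the vitamin D-binding protein, differed by 1.16 ± 0.30 (SE, adjusted p = 0.0199). Of 12 serpins 3 were higher: Serpinc1, which is antithrombin (1.62 ± 0.34 (SE, adjusted p = 0.00843)), Serpinf1 (1.20 ± 0.29 (SE, adjusted p = 0.0153)) and Serping1 (1.16 ± 0.37 (SE, adjusted p = 0.0469)). Quantile normalization gave 3 serpins higher and 2 lower. Of 19 coagulation genes 3 were higher and 1 lower, 8 and 2 with the block, and 1 and 2 with quantile normalization, where the balance turned. F13b and Kng1 differed by 0.93 ± 0.20 (SE, adjusted p = 0.0105) and 1.36 ± 0.35 (SE, adjusted p = 0.0213), and Klkb1, plasma kallikrein, was lower, with a difference of -1.71 ± 0.42 (SE, adjusted p = 0.0175). Of 17 complement genes 2 were higher (11.8%, near the share of all genes), Cfi (1.51 ± 0.35 (SE, adjusted p = 0.0131)) and C1ra (1.18 ± 0.31 (SE, adjusted p = 0.0219)). The block gave 6 higher and 1 lower complement genes, and quantile normalization called 0 in limma (3 higher at an unadjusted p under 0.05). Cfb differed by 1.14 ± 0.38 (adjusted p = 0.0557, and 0.0296 with the block).

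The major urinary proteins, pheromone carriers made in large amounts in mouse liver, differed between preparations as well as between fractions. All 16 tested genes of the family had a positive difference, beside 5378 of all 9322 genes, with a median of 0.99. The median was -0.17 without monosome replicate 1 and 2.18 without monosome replicate 2. It was 1.95 without light polysome replicate 1 and 0.0426 without light polysome replicate 2. Mup10 was called, at 262 and 364 FPKM on monosomes and 2055 and 3234 FPKM on light polysomes. Its difference was 3.06 ± 0.51 (SE, adjusted p = 0.00544 in limma). With the preparation as a block, 11 of 16 were called higher. Of the 16, 3 reached 1 FPKM on light polysomes alone and so had to be positive. Mup7, for example, was at 10.1 and 151 against 61.5 and 1049 FPKM, and Mup20 at 7.66 and 261 against 12.1 and 627 FPKM, with the low values in preparation 1 in both fractions. The adjusted p of Mup7 was 0.528 without the block and 0.0219 with it, and that of Mup20 was 0.838 and 0.126, so Mup20 was called in neither. Eif2s3y, encoded on the Y chromosome, was at 0 in both libraries of preparation 1 and at 34.5 and 32.0 FPKM in those of preparation 2. Xist, encoded on the X chromosome, was at 2.44 and 0.555 FPKM in preparation 1 and at 0 in both libraries of preparation 2. The preparations thus differed in these sex-linked genes. The sex of the animals is not given, and its part in the spread between replicates was not tested. The copies of the family are nearly identical, so single members are uncertain. Mup7, Mup20, Eif2s3y and Xist were chosen after their values were seen.

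Pathways of liver metabolism had some higher members, to be read beside 10.9% higher over all genes. Of all 9322 genes, 1594 were higher with the block, 723 with equal totals and 755 with quantile normalization. In fatty acid oxidation 7 of 29 were higher, with 13 higher and 1 lower with the block and 4 higher and 1 lower with equal totals and 3 and 2 with quantile normalization; Etfa and Etfdh, which pass electrons from acyl-CoA dehydrogenases to the respiratory chain, differed by 2.17 ± 0.37 (SE, adjusted p = 0.00288) and 1.28 ± 0.29 (SE, adjusted p = 0.0129), and Acat1 by 1.76 ± 0.42 (SE, adjusted p = 0.0148). In the citric acid cycle 6 of 20 were higher, against 9 with the block and 2 higher and 1 lower with quantile normalization, among them Mdh2 (1.09 ± 0.25 (SE, adjusted p = 0.013)), Sucla2 (1.00 ± 0.23 (SE, adjusted p = 0.0138)) and the cytosolic Mdh1 (1.20 ± 0.28 (SE, adjusted p = 0.015)). In amino acid and urea metabolism 6 of 45 were higher (13.3%, near the share of all genes), including Oat (1.13 ± 0.25 (SE, adjusted p = 0.0106)) and Gcsh (1.04 ± 0.27 (SE, adjusted p = 0.0217)). The block gave 14 higher there, and quantile normalization 0 higher and 1 lower in limma (4 and 4 at an unadjusted p under 0.05). Cps1, which starts the urea cycle, was at 66.1 and 76.8 FPKM on monosomes and 76.1 and 73.2 FPKM on light polysomes and differed by 0.07 (adjusted p = 0.937). In glycolysis and gluconeogenesis 4 of 21 were higher, but 1 with equal totals and 1 higher and 1 lower with quantile normalization, with Ugp2, Pfkl and Pgam1 at 1.01, 0.73 and 1.00 (adjusted p = 0.0306, 0.0329 and 0.0386). Without light polysome replicate 1, at most 1 gene was called in each of these 4 lists.

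Of 45 cytochrome P450 genes 2 were higher, which is 4.44% and below the 10.9% of all genes. The block gave 6, beside 1594 of all 9322 genes, and quantile normalization 1, beside 755. Cyp2c70, which hydroxylates bile acids in mice, was at 214 and 271 FPKM on monosomes and 457 and 539.8 FPKM on light polysomes, a difference of 1.04 ± 0.28 (SE, adjusted p = 0.0263), and Cyp4a32, of the omega-hydroxylase family, differed by 1.46 ± 0.27 (SE, adjusted p = 0.00433). Cyp2e1 was at 2790 and 3516 against 3559 and 4438 FPKM (adjusted p = 0.752) and Cyp2a12 at 194 and 165 against 284 and 250.2 FPKM (adjusted p = 0.116). Of 29 bile acid genes 4 were higher and 1, Abcc2, lower (13.8% and 3.45%, against 10.9% and 7.07% of all genes). The block gave 9 and 3, equal totals 2 and 2, and quantile normalization 1 and 2 with a median near 0. Scp2, a sterol carrier and thiolase, was at 622 and 649 FPKM on monosomes and 2339 and 1854 FPKM on light polysomes, a difference of 1.71 ± 0.25 (SE, adjusted p = 0.00159), and Hsd17b4 differed by 1.33 ± 0.28 (SE, adjusted p = 0.00885). In lipid synthesis 1 of 33 was higher, Fdps (1.18 ± 0.36 (SE, adjusted p = 0.0387)), and 1 lower, Elovl6 (-1.66 ± 0.43 (SE, adjusted p = 0.0219)), and 1 and 4 with the block, while Hsd17b7 differed by -0.79 ± 0.31 (adjusted p = 0.0975).

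In the secretory pathway 6 of 26 translocation genes were higher (23.1%, against 10.9% of all genes). They were led by the small subunits Srp14 (1.80 ± 0.23 (SE, adjusted p = 0.000798)), Sec61b (1.53 ± 0.29 (SE, adjusted p = 0.0053)) and Srp9 (1.01 ± 0.20 (SE, adjusted p = 0.00614)). For the translocation genes the block gave 9 higher and 1 lower, and equal totals 6 and 1. Quantile normalization gave 4 and 1, and the list median fell from 0.54 to 0.11. Of 20 chaperones of the endoplasmic reticulum 2 were higher, Hsp90b1 (1.02 ± 0.29 (SE, adjusted p = 0.0289)) and Sdf2l1 (1.21 ± 0.35 (SE, adjusted p = 0.0338)), and 1, Sel1l, lower. These shares of 10% and 5% lie below those of all genes, and the block gave 6 higher and 1 lower, and quantile normalization 0 higher and 1 lower in limma (1 and 2 at an unadjusted p under 0.05). Of 15 genes of cytosolic chaperones, chaperonin subunits and others, 1 was higher, Cct6a (0.93 ± 0.27 (SE, adjusted p = 0.0354)). The chaperonin gene Cct8 and Dnaja1, which is not a chaperonin gene, differed by 0.74 ± 0.25 and 0.92 ± 0.39 (adjusted p = 0.0639 and 0.125). With the block 2 were higher, Cct8 with an adjusted p of 0.0164, and 1 lower, Hspa8 (0.0168), which was named after its value was seen; equal totals and quantile normalization called 0 in limma (1 higher and 1 lower, and 0 and 3, at an unadjusted p under 0.05).

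Some regulators of transcription were lower on light polysomes. Over all genes 7.07% were lower, against 20.6% of the hepatocyte factors tested and 18.8% of the immediate early genes tested. Of 34 hepatocyte transcription factors 7 were lower (9 at an unadjusted p under 0.05, beside 2 higher), with a median of -0.17; 1 was called without monosome replicate 2 and 0 without light polysome replicate 1. Hnf4a, a master factor of hepatocyte identity, was at 72.9 and 78.2 FPKM on monosomes and 28.7 and 37.9 FPKM on light polysomes, a difference of -1.17 ± 0.28 (SE, adjusted p = 0.0162). Rxra, the partner of many nuclear receptors, was at 74.5 and 78.0 against 34.8 and 38.8 FPKM and Nr5a2 at 7.65 and 7.92 against 2.66 and 3.19 FPKM, with differences of -1.03 ± 0.23 (SE, adjusted p = 0.0118) and -1.17 ± 0.26 (SE, adjusted p = 0.0125). Onecut2, at 1.58 and 1.71 against 0.377 and 0.431 FPKM, is 1 of the 7 but reached 1 FPKM on monosomes alone and so had to be lower. Of 16 immediate early genes 3 were lower: Zfp36l1 (-1.51 ± 0.33 (SE, adjusted p = 0.0106)), Zfp36 (-1.37 ± 0.30 (SE, adjusted p = 0.011)), both of which promote decay of messages with AU-rich elements, and Jun (-1.42 ± 0.33 (SE, adjusted p = 0.0137)); none was called without either light polysome library. Of 41 splicing regulators 5 were higher and 3 lower (12.2% and 7.32%, near the shares of all genes). Equal totals gave 2 and 2, the block 5 and 5, and quantile normalization 2 and 6, where the balance turned. Hnrnpf and Hnrnpu differed by 1.60 ± 0.26 (SE, adjusted p = 0.00231) and 1.50 ± 0.27 (SE, adjusted p = 0.00433) and Srsf4 by -0.86 ± 0.21 (SE, adjusted p = 0.0177), and Srsf3 was at 21.3 and 21.5 against 27.0 and 15.4 FPKM (adjusted p = 0.918).

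The labelled cell type was checked against markers. The 12 hepatocyte markers summed to 17260 and 19610 FPKM on monosomes and 17180 and 18280 on light polysomes, with Alb and Serpina1a listed at 0 in all 4. Ttr adds 6438 and 7212 FPKM to the monosome sums and is listed at 0 in both light polysome libraries. The hepatocyte sums of the fractions thus do not rest on the same genes. The 19 Kupffer cell and macrophage markers summed to 145 and 116 FPKM on monosomes and 302 and 188 on light polysomes; of 14 tested 2 were higher, Lyz2 (1.46 ± 0.40 (SE, adjusted p = 0.0264)) and C1qb (1.08 ± 0.35 (SE, adjusted p = 0.0497)), and 7 higher and 1 lower with the block and 1 higher with equal totals, while Cd68 differed by 0.98 ± 0.33 (adjusted p = 0.0606, and 0.0236 with the block). The 2 higher macrophage markers are 14.3% of those tested, against 10.9% of all genes. Both fractions of a preparation came from the same cells, so the marker sums, the hepatocyte ones aside, compare fractions and do not count cells of a type. The 14 endothelial markers summed to 71.3 to 95.6 FPKM over the 4 libraries and 15 stellate markers to 25.3 to 40.7; in neither list was a gene called, the lowest p among them belonging to Stab1 (adjusted p = 0.0528, and 0.0108 with the block, and called lower with the block, equal totals and quantile normalization), Gpr182 (0.102), Clec4g (0.103) and Bgn (0.178). The 14 ductal markers summed to 24.4 and 27.3 FPKM on monosomes and 51.4 and 36.6 on light polysomes, of which Tm4sf4 was higher (1.08 ± 0.26 (SE, adjusted p = 0.0158)) and 1 other was lower, while 8, Krt19, Krt7 and Epcam among them, were at 0 throughout. Lymphocyte markers summed to under 4 FPKM, neutrophil markers to under 7, and the red cell markers were uncalled, with Hba-a1 at 37.8 and 9.81 against 8.66 and 8.34 FPKM. The part of these cells in the gene lists above was not tested.

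The same fractions in mice fed DDC gave fewer calls, mostly with the same sign. These libraries share none with the chow comparison. Of 9306 genes tested in both diets, 321 were higher on light polysomes in DDC (3.45%) and 102 lower (1.1%). The differences correlated with r = 0.626 and rho = 0.598 across genes. Of 1017 genes higher in chow, 924 (90.9%) had the same sign in DDC and 252 were called in both, which is 24.8% of the chow calls and 78.5% of the DDC calls. Of 658 genes lower in chow, 610 (92.7%) had the same sign and 87 were called in both, 13.2% and 85.3%. In each direction 1 gene was called with the opposite sign. The same-sign shares are of genes called in chow, and no such share was counted over all genes. The respiratory chain lists held 30 higher genes of 76 in DDC, with a median of 0.83 against 1.11 in chow. Ndufa1 differed by 1.99 in DDC (adjusted p = 0.00242) and Cycs by 1.93 (adjusted p = 0.00262). Coding length had a rho of -0.44 in DDC.

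The median difference of ribosomal protein genes lay closer to 0 in DDC. There, 10 of 82 were lower and 0 higher, with a median of -0.43 against -1.59 in chow. Rpsa differed by -1.96 in DDC (adjusted p = 0.00453), Rplp0 by -1.52 (adjusted p = 0.00453) and Rpl28 by -0.69 (adjusted p = 0.139). Tested gene by gene, the chow difference minus the DDC difference was called for 0 ribosomal protein genes by limma after adjustment, while 61 of the 82 had an unadjusted p under 0.05, against 758 of all genes. The 21 plasma carriers tested in both diets had a median of -0.24 in DDC against 1.02 in chow, with 0 higher and 1 lower in DDC. Mup10 could not be compared, being listed at 0 in DDC.

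**Figure D5:**
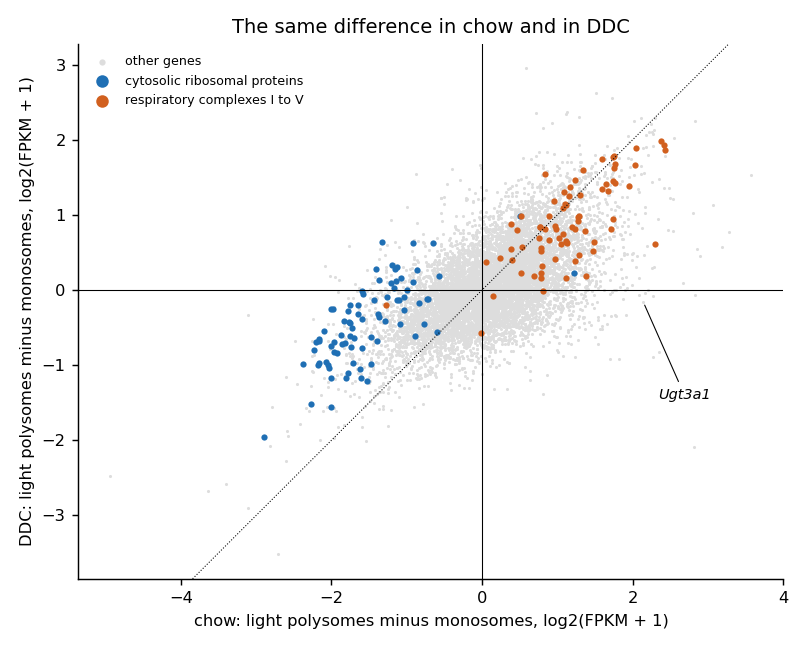
Each point is a gene, with its difference between light polysomes and monosomes in chow on the horizontal axis and in DDC on the vertical axis, both on the log2(FPKM + 1) scale; the dotted line marks equal differences. Respiratory chain genes (orange) lie mostly near or below the line in the upper right, with medians of 1.11 in chow and 0.83 in DDC. Ribosomal protein genes (blue) lie almost all left of 0, with medians of -1.59 in chow and -0.43 in DDC.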

How the data were processed

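Polyadenylated RNA of gradient fractions was sequenced in 16 libraries, of which 4 enter the main comparison. The submitters' processing notes name Cuffnorm, STAR 2.4.2a, Picard 1.119, Trimmomatic, bcl2fastq 2.17.1.14 and the build GRCm38 (mm10); Cuffnorm options and the annotation release are not given in the sources used here. The values deposited by the authors are FPKM per transcript and library, scaled between libraries by Cuffnorm. They carry decimals, although the table is named for counts.

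Of 117592 transcripts 116753 (99.29%) were matched by identifier to GENCODE M21, with the same version in 94.6%; the 839 unmatched held at most 0.51% of a library and were left out. FPKM were summed per gene. Where a group listed a gene at 0 in both libraries and another library had 100 FPKM or more, the group's value was dropped. Genes with 1 FPKM or more in 2 of the 4 libraries were kept, so 185 genes passed through light polysomes alone (76 called higher) and 303 through monosomes alone (105 called lower). Log2(FPKM + 1) values of all 16 libraries were fitted with 8 group means in limma 3.58.1 (R 4.3.3), with a variance trend, 8 residual and 4.131 prior degrees of freedom, and Benjamini-Hochberg adjustment over all genes tested. All 16 libraries share one estimate of the spread. Differences understate the change of genes near 1 FPKM. The test was tried on simulated data for this comparison with 9322 genes: 22% of genes changed by 1 and 79% of those changed by 2 on the log2 scale were called, and 4 of 8628 unchanged genes.

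Replicate numbers pair the chow fractions by preparation, per the labels. Between chow groups the replicate deviations correlated with r = 0.417 to 0.795, and 0.565 for monosomes with light polysomes.

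The members and the 40 gene lists were chosen with earlier results of these data known. Genes named are the 10 largest rises and falls among called protein-coding genes with a mean of 20 FPKM or more. The rule also names the 3 members of each list with the lowest p, and a fixed set. Other tested genes were named after their values were seen, Cox7a2l, mt-Rnr1 and mt-Rnr2 among them. A few genes that this rule names are not reported here. Coding length is the longest annotated coding region without stop codon. Steps of 1 fragment were read from genes with 1 transcript over 1500 bases, with 84.7% to 90.2% of low values within 0.15 of a whole number. Start windows come from RefSeq. Alternatives were another pseudocount, filters, scalings, the preparation block, fewer libraries in the fit, no trend, and leaving out libraries.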

Additional observations from a re-analysis of the deposited data

Results flagged for a closer look

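Ugt3a1, a glycosyltransferase of the endoplasmic reticulum, was the one gene whose difference between light polysomes and monosomes was called as unequal in chow and DDC (interaction in limma, adjusted p = 0.0199). The chow difference exceeded the DDC difference by 2.30 ± 0.27 (SE, log2 scale). In chow it stood at 1.48 and 1.21 FPKM on monosomes and 9.03 and 9.63 FPKM on light polysomes and at 14.6 and 14.0 FPKM on heavy polysomes, with the light polysome values above the monosome values in both preparations. In DDC its monosome and light polysome values were all under 1 FPKM, where log2(FPKM + 1) leaves little room for a difference.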

How the results depend on the processing

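With preparations as a replicate block, 1594 genes were higher and 924 lower in chow (1705 and 782 in the fit to the 4 libraries alone), 640 higher and 258 lower in DDC, and 3 were called for the difference between the diets; of the named genes all 109 called ones stayed called and 9 of 28 uncalled ones were called. The 4 libraries alone without the block gave 680 higher and 357 lower. Equal totals gave 166 lower genes in DDC and 3 for the difference between diets, quantile normalization 215 and 2 and a rho of -0.22 for coding length, no filter 6, a pseudocount of 0.1 2, and zeros kept 11 for the difference between diets. With libraries left out, counts ran from 39 to 830 higher and 44 to 582 lower in chow, 185 to 309 higher and 41 to 91 lower in DDC, and 0 to 20 for the difference; fewer libraries leave an arm with 1. Of the 109 called named genes 101 stayed called with equal totals, 90 with quantile normalization, 51 without light polysome replicate 1 and 23 without both libraries of preparation 2. Signs turned for uncalled genes only. Cps1 was at -0.0664 with equal totals, at -0.32 with quantile normalization and from -0.0681 to 0.20 with libraries left out, where Mup20 ran from -1.86 to 3.72 and Srsf3 from -0.46 to 0.33. With equal totals the list medians of lipid synthesis (-0.0101), endothelial markers (-0.0493) and splicing regulators (-0.11) turned negative, and with quantile normalization those of endoplasmic reticulum chaperones (-0.0263), lipid synthesis (-0.0772), ductal markers (-0.0247) and splicing regulators (-0.0306). Where a call changed for another reason, the cause was not tested. At 20.1 to 34.6 fragments per kilobase, 1 FPKM of a short gene rests on few fragments.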
